A study of Mus musculus with 12 samples.

Results

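The genes described here are 45 genes of DNA replication and nucleotide synthesis, which cells use to copy their chromosomes in S phase. They were chosen by name, and 18194 mouse genes in all have a probe of their own on the array. Chaf1a has no such probe in the annotation used and was not analysed here, which left 44 members. Each was represented by the probe, among those paired with that gene alone, with the highest mean signal over the 12 arrays.

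The study measured gene expression in spinal cord of young and aged mice with and without spinal cord injury (SCI). All 12 mice were female C57BL/6 (C57BL/6J in the methods), and each gave RNA for 1 array. Young mice were 2 to 3 months old and aged mice 15 to 18 months old, with 3 intact and 3 injured animals of each age. The injured mice received a contusion at the Th9 level and were killed 9 days later, whereas the intact mice were naive animals rather than operated ones. All were perfused with heparinized saline before the Th9 segment was dissected. A segment holds every cell type of the cord and, after SCI, cells that entered it, so fewer cells of a type and less RNA per cell cannot be told apart.

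The deposited values are MAS 5.0 signals, a linear measure of probe brightness that the authors scaled so that every array has the same 2% trimmed mean of 100. The median signal was 20.4 to 23.9 per array, and 35.05% to 36.73% of the probes lay above 50, the cutoff that the methods of the study use for expressed genes. Markers of neurons (6 of 6 measured), astrocytes (6 of 6) and oligodendrocytes (5 of 5) had mean signals above 50 in young intact cord, whereas none of the 4 motor neuron markers did. Over the log2 signals of all genes tested, the mean distance between arrays of a group was 58.6 for aged injured cord, 31.4 for young injured, 26.8 for young intact and 26.9 for aged intact cord. Aged injured replicate 1 had a summed signal of 6 neuron markers of 1224, against 8414 and 5452 in replicates 2 and 3, so results that rest on that group are also given without its arrays.

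Copying a genome proceeds in steps, and the members are ordered by them. The origin recognition complex, Cdc6 and Cdt1 load the ring-shaped MCM2-7 helicase onto DNA in G1, and geminin (Gmnn) binds Cdt1 and prevents a second loading. In S phase, Cdc45 and the GINS complex join MCM2-7 into the active helicase, primase and polymerase alpha start each strand, polymerases delta and epsilon extend it, and PCNA, a sliding clamp placed by replication factor C, holds the polymerases on DNA. Fen1 and Lig1 trim and join the lagging strand fragments, RPA covers single-stranded DNA, and ribonucleotide reductase, thymidylate synthase, thymidine kinase and dUTPase supply the deoxynucleotides. Many of these genes are transcribed under E2F factors at the border of G1 and S, together with cyclin E. In the intact adult cord few cells divide, whereas microglia, astrocytes, oligodendrocyte precursors, ependymal cells and cells of the vessel wall and scar are known to proliferate after SCI.

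Sequence upstream of the members was set beside the data because E2F factors are themselves among them. RefSeq promoters (GRCm38.p6) were matched by symbol for 37 of the 45 members, without an entry for Mcm4, Rfc2, Pole, Prim2, Gins1, Gins2, Gmnn and Ccne2. The 250 bases before each start were searched on both strands for the E2F words TTTGGCGC, TTTGCCGC, TTTCGCGC and TTTCCCGC and for CCAAT, the word bound by NF-Y. An E2F word stood in the promoter of 8 members (21.6% of 37) and of 583 of 27025 genes in all (2.16%). CCAAT stood in those of 22 members (59.5%), against 37.5% of all genes. Of 23 genes of mitosis, a list used for comparison throughout, 1 held an E2F word (4.35%) and 18 held CCAAT (78.3%). Such a match is a description of letters and not a binding site.

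The promoters of Mcm6 and Mcm5 are shown because they held the most E2F words, and those of Rrm2 and Rpa1 because these genes had a large and a small difference after SCI and held none. In Mcm6, words on opposite strands overlapped by 4 bases at 110 to 103 and 106 to 99 bases before the start, and another lay at 47 to 40. In Mcm5 the overlapping pair lay at 153 to 146 and 149 to 142. The capitals mark the E2F words, and each line runs 5′ to 3′ on the strand of its gene.
Mcm6 (chr1:128359706-128359955, minus strand): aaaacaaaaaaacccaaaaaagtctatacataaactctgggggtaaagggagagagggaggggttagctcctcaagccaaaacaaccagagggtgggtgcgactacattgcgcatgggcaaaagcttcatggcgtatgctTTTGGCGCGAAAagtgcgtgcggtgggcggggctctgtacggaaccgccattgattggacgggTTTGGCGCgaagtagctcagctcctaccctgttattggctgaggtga
Mcm5 (chr8:75109259-75109508, plus strand): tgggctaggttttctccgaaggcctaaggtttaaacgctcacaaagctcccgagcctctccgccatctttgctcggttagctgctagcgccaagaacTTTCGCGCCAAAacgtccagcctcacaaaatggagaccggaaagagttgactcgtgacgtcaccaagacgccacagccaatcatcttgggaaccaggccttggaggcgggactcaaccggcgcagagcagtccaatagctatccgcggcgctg
Rrm2 (chr12:24708004-24708253, plus strand): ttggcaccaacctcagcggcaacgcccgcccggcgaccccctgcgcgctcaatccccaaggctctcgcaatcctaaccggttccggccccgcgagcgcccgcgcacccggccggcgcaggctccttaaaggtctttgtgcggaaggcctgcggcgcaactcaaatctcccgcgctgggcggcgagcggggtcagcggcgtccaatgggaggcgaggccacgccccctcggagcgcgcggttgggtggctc
Rpa1 (chr11:75348384-75348633, minus strand): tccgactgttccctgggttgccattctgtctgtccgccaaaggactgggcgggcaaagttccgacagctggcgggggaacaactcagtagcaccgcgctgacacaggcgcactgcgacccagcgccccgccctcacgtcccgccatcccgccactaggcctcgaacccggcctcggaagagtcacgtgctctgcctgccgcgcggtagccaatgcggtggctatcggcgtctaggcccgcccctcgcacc

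The other 6 members held 1 word each, at 138 to 131 bases before the start in Cdc6 and in Pola1, 165 to 158 in Mcm7, 27 to 20 in Orc1, 10 to 3 in Rfc3 and 185 to 178 in Uhrf1. Mcm7 and Uhrf1 each have a pair of annotated starts, and the word lay before one of them. Windows of 40 bases around these words are shown, again with the word in capitals.
Mcm7 (chr5:138172025-138172064, minus strand): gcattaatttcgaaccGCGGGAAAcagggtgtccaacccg
Orc1 (chr4:108579411-108579450, plus strand): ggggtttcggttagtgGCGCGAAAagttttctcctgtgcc
Cdc6 (chr11:98907997-98908036, plus strand): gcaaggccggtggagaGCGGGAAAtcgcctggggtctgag
Pola1 (chrX:93632270-93632309, minus strand): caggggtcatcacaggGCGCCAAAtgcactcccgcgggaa
Rfc3 (chr5:151651209-151651248, minus strand): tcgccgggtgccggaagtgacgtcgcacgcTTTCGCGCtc
Uhrf1 (chr17:56304112-56304151, plus strand): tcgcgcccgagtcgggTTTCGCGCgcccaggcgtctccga

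After SCI 18 replication genes rose in young and 26 in aged mice, while 3 fell in young and none in aged mice. Of the 45 members, 34 exceeded a mean of 50 in 1 group or more and entered the test, 22 of them already in an intact group and 12 only through an injured group. The other 10 measured members (Mcm10, Cdc45, Orc1, Cdc6, Pola2, Pole, Tyms, Chaf1b, E2f1 and E2f8) were not tested. Calls are at a Benjamini-Hochberg adjusted p under 0.05 in limma, a linear model fitted to the log2 signals of all 10511 genes that passed the same filter. In young mice 33.9% of all those genes passed as higher and 34.1% as lower. In aged mice the 26 and none stand beside 35.6% and 39.9% of all genes tested. With an unadjusted p under 0.05, in either direction, the count was 28 of 34 members, beside 8097 of all 10511 genes.

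Since 12 members passed the filter only because they were high after SCI, the 22 that were above 50 in intact cord were also counted alone. Of these, 9 rose and 3 fell in young mice, the former a share near that of all genes, and 15 rose and none fell in aged mice. The median log2 difference between injured and intact cord over all 44 measured members was 0.48 in young and 1.27 in aged mice, whereas over all 18194 genes it was 0.065 and -0.022. In the 22 it was 0.097 and 0.61. On the scale of log2(signal + 16), which damps low signals, the median over 44 members in aged mice was 0.84. The scaling matters for the young mice. With each array centred on its median log2 signal, which moves the median difference of all genes to -0.13 at both ages, 13 members rose and 7 fell in young mice and 23 rose and 2 fell in aged mice. The added falls were those of Orc6, Prim1, Pold2 and Rpa1 in young and of Prim2 and Rpa1 in aged mice. Under the same scaling 16 members were again higher and none lower between the injured ages.

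**Figure D1:**
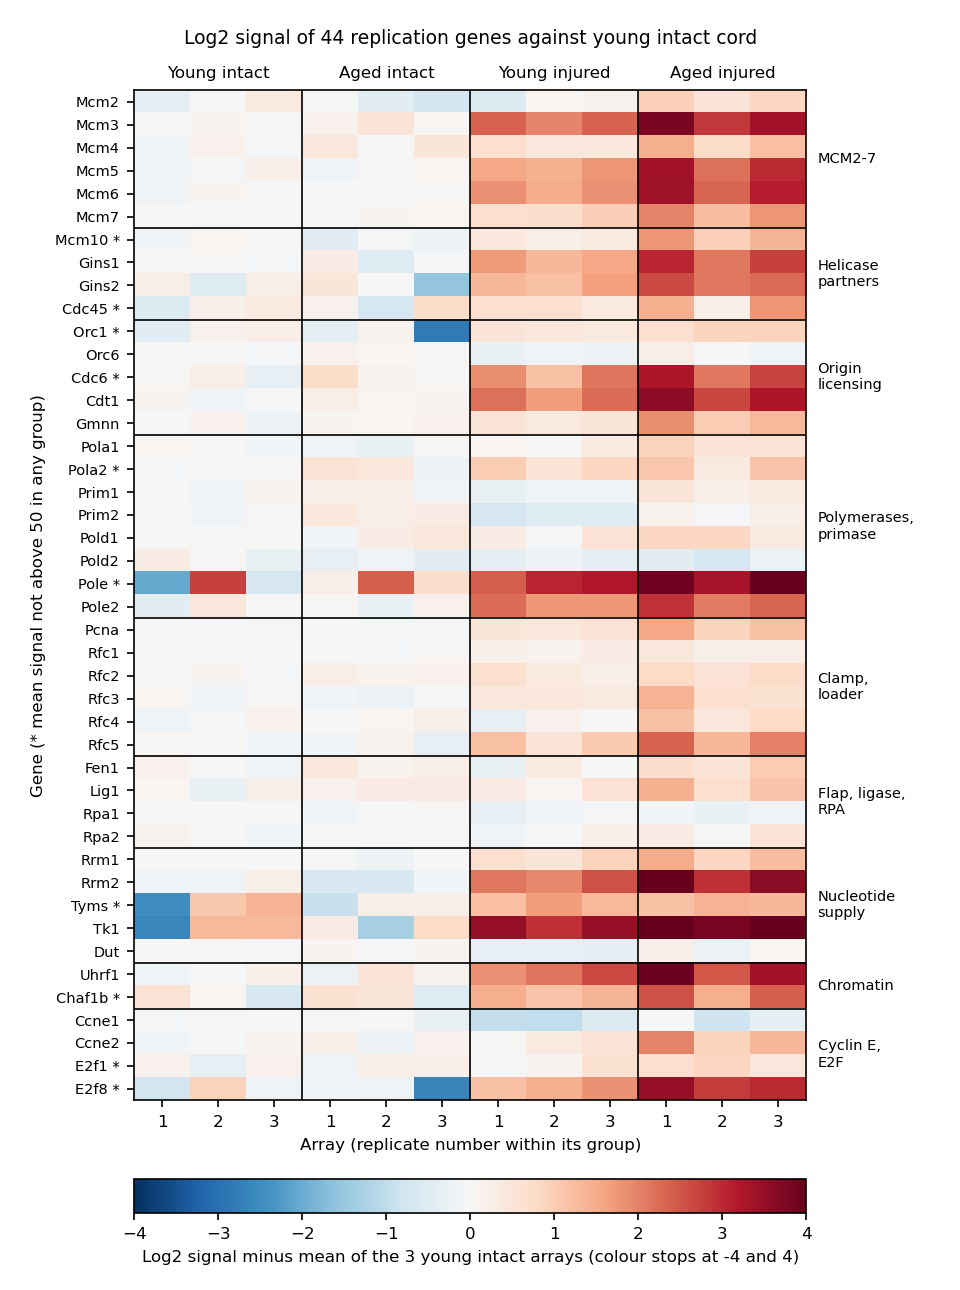
Log2 signal of the 44 measured members on each of the 12 arrays (columns, by group and replicate) minus the mean of the 3 young intact arrays, as colour from -4 to 4, with genes in rows by complex and an asterisk on those with no group mean above 50. The rows of MCM2-7, Cdt1, Rrm2 and Uhrf1 darken from young to aged injured cord, those of Orc6, Rpa1 and Dut stay pale, and aged injured replicate 2 is paler than replicates 1 and 3.

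In the direct comparison of aged with young injured cord, 16 members were higher and none lower, where 4.41% of all genes tested were called higher and 4.58% lower. Of the 22 members above 50 in intact cord, 10 were higher. The median over the 44 measured members was 0.71, and over all genes -0.060. The log2 difference was positive in 41 of the 44, against 7868 of all 18194 genes. All 3 aged arrays lay above all 3 young arrays for 27 of the 44, against 10.2% of all genes measured. By the cutoffs stated in the methods, a signal above 50 and a ratio above 2, 10 members were higher in aged mice. Of all 9834 genes with such a signal, 137 (1.39%) were higher. In intact cord no member differed between the ages in limma, where 0.542% of all genes were called higher and 0.266% lower. An unadjusted p under 0.05 was reached there by 1 member and by 1073 of all 10511 genes tested. With array weights 1 member, Prim2, was called higher. The median in intact cord was 0.037.

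Whether injury changed a gene more in aged than in young mice was tested as the difference of both injury differences. No member passed this test in limma, and of all genes 0.133% were called higher and 0.304% lower. An unadjusted p under 0.05 was reached by 18 of 34 members and by 1708 of all 10511 genes tested. The estimate was positive in 42 of the 44 measured members and in 7399 of all 18194 genes, with a median of 0.62 beside -0.090 over all genes. Rrm2 came nearest, with a log2 difference of 1.78 ± 0.38 (SE) and an adjusted p of 0.0816. Without aged injured replicate 2 the count was 13, without aged injured replicate 1 it was 1, and with any 1 of the other 10 arrays left out it was 0. It was 20 with limma array weights. How many of all genes passed in these other fits is not given here.

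MCM2-7 is the helicase that unwinds DNA ahead of the fork, and 5 of its 6 genes rose after SCI in both ages. These 5 were joined by Mcm2 in aged mice. In young mice the Mcm2 probe used here gave -0.10 and was not called, whereas a second one, above 50 only in aged injured cord, gave 1.07. The median log2 difference over the 6 was 1.18 in young and 2.22 in aged mice. In injured cord, Mcm3, Mcm5, Mcm6 and Mcm7 were higher in aged mice, while Mcm2 (0.86 ± 0.26, adjusted p = 0.0598) and Mcm4 did not pass. Mcm7 had signals of 119.5, 117.3 and 118.2 in young intact, 116.3, 127.6 and 124.4 in aged intact, 186.6, 193.7 and 233.1 in young injured and 463.5, 278.3 and 401.3 in aged injured cord. All injured arrays lay above all intact ones and all aged injured arrays above the young injured ones. It was 1.73-fold higher after SCI in young (log2 difference 0.78 ± 0.16, limma adjusted p = 0.00126) and 3.10-fold in aged mice (1.60 ± 0.16, adjusted p = 6.42e-06), and 1.86-fold higher in aged injured than in young injured cord (0.87 ± 0.16, adjusted p = 0.0139).

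For Mcm5, whose promoter held the overlapping E2F words, the signals were 24.9, 25.3 and 30.8 in young intact, 25, 27.7 and 28.3 in aged intact, 78, 71.9 and 90.7 in young injured and 274.6, 122.5 and 213.9 in aged injured cord. Intact cord stayed below 31 at both ages, so its difference after SCI is a lower bound, at least 1.60-fold in young and at least 4.07-fold in aged mice (adjusted p = 0.000213 and 2.36e-06). Aged exceeded young injured cord 2.54-fold (1.27 ± 0.24, adjusted p = 0.0158), without overlap. With the mean of all 3 Mcm5 probes, 1 of them under 5 in every group mean, the young rise (adjusted p = 0.804) and the age difference (0.0845) were not called. Mcm4 had the smallest difference between the injured ages of these 6, with signals of 116.2, 146 and 125.1 in young intact, 174.2, 123.1 and 179.2 in aged intact, 204, 174.1 and 173.4 in young injured and 351, 215.2 and 297 in aged injured cord. It rose 1.42-fold in young (adjusted p = 0.0317, and 0.185 with the arrays centred on their medians) and 1.81-fold in aged mice (adjusted p = 0.00175), and its difference between the ages after SCI (0.62 ± 0.19, adjusted p = 0.062) did not pass.

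The partners of the helicase were below the cutoff in intact cord, with group means of 12.2 to 20.4. Gins1 and Gins2, subunits of the GINS complex, rose in both ages, whereas Mcm10 and Cdc45 were not tested. Gins1 had signals of 15.5, 15.6 and 14.2 in young intact, 18.4, 10.6 and 14.3 in aged intact, 49.3, 37.9 and 44 in young injured and 123.4, 65.7 and 99.7 in aged injured cord. Aged injured cord was at least 1.93-fold above both aged intact and young injured cord (log2 differences 2.73 ± 0.26 and 1.10 ± 0.26, adjusted p = 5.27e-06 and 0.0304). The 3 aged injured arrays were the only ones above 50, and they spread from 65.7 to 123.4. Gins2 had signals of 23.4, 14 and 23.9 in young intact, 27.5, 19.9 and 6.6 in aged intact, 49.5, 44.7 and 62.5 in young injured and 124.5, 85.8 and 95.7 in aged injured cord. It was at least 1.04-fold higher after SCI in young and at least 2.04-fold in aged mice (adjusted p = 0.0171 and 0.000223). Its ages did not overlap after SCI, but the difference (0.96 ± 0.44, adjusted p = 0.171) did not pass. Mean signals of Mcm10 were 18.3 in young and 37.6 in aged injured cord, and those of Cdc45 18.7 and 30.7.

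Among the licensing genes, Cdt1, the loading factor, and Gmnn, its inhibitor, rose in both ages and were higher in aged injured than in young injured cord. Cdt1 had signals of 49, 42.2 and 44.5 in young intact, 53.8, 47.5 and 49 in aged intact, 206.2, 142.9 and 211.3 in young injured and 538.4, 286.8 and 424.1 in aged injured cord. Its rise was at least 3.74-fold in young and 8.31-fold in aged mice (log2 differences 2.03 ± 0.21 and 3.01 ± 0.21, adjusted p = 1.31e-05 and 5.65e-07). The ages differed 2.23-fold after SCI (1.13 ± 0.21, adjusted p = 0.0148), and no array of one injured group reached the range of the other. Orc6, a subunit of the origin recognition complex, had signals of 96.8, 102.6 and 95.8 in young intact, 112, 103.8 and 100.8 in aged intact, 82.5, 90.5 and 85.7 in young injured and 115.6, 100.2 and 90 in aged injured cord. The injured young arrays lay below all intact arrays, but neither injury difference passed (-0.19 ± 0.10 and -0.06 ± 0.10, adjusted p = 0.107 and 0.618), nor did that between the ages (0.23 ± 0.10, adjusted p = 0.141). Orc1 and Cdc6, which also act at origins, stayed under 50 on every array. The mean of Cdc6 was 4.8 in young intact, 16.3 in young injured and 31.8 in aged injured cord.

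Polymerases and primase gave calls in both directions. In young mice Pole2, a subunit of polymerase epsilon, rose and Prim2, the large primase subunit, fell. In aged mice Pole2, Pola1 and Prim1 rose and none fell. The median over 8 genes was 0.21 in young and 0.53 in aged mice. Prim2 had signals of 91.1, 82.4 and 91.8 in young intact, 119, 105.1 and 111.2 in aged intact, 55, 63.3 and 61.4 in young injured and 98.1, 84.2 and 103.5 in aged injured cord. Young injured cord was 1.48-fold below young intact cord (-0.56 ± 0.10, adjusted p = 0.0007), with all 3 arrays under the lowest intact one. With the mean of all 3 Prim2 probes, of which 1 stayed under 8 in every group mean, the adjusted p was 0.933, while the other probe above 50 gave -0.71. In aged mice the difference was -0.23 ± 0.10 (adjusted p = 0.0592). Aged stood 1.59-fold above young injured cord (0.67 ± 0.10, adjusted p = 0.00793), although its mean of 95.3 there was not above that of aged intact cord, 112, and the adjusted p was 0.271 with the mean of all probes. In intact cord all aged arrays already lay above all young ones (0.34, adjusted p = 0.246, and 0.0212 with array weights). The difference of the injury differences was 0.33 (adjusted p = 0.301).

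Prim1, the catalytic primase subunit, had signals of 106.9, 94.9 and 111.8 in young intact, 120.3, 119.4 and 96.9 in aged intact, 85.4, 93.3 and 95.6 in young injured and 145.1, 126.3 and 132.6 in aged injured cord. It rose 1.20-fold in aged mice (0.27 ± 0.11, adjusted p = 0.0409, and 0.259 with the arrays centred on their medians), was not called in young mice (-0.19 ± 0.11, adjusted p = 0.135), and was 1.47-fold higher in aged injured than in young injured cord (0.56 ± 0.11, adjusted p = 0.0165). Pold2, a subunit of polymerase delta, had signals of 96.3, 79 and 64 in young intact, 62.7, 71.1 and 58.4 in aged intact, 60.1, 68.7 and 61.4 in young injured and 57.8, 48.3 and 66.3 in aged injured cord. Its groups overlapped throughout, and no comparison was called (aged against young injured cord -0.15 ± 0.16, 95% confidence interval -0.51 to 0.21). Pold1, the catalytic subunit of polymerase delta, was not called either (0.40 ± 0.21 in the same comparison, adjusted p = 0.21). Pola2 and Pole did not reach the cutoff in any group.

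Pcna encodes the clamp and read above the cutoff on every array. Its signals were 907, 910.9 and 863.7 in young intact, 888.9, 844.5 and 842.7 in aged intact, 1243.6, 1217.5 and 1325.8 in young injured and 2637.9, 1661.3 and 2034.1 in aged injured cord. The 6 intact arrays lay within 842.7 and 910.9, the young injured ones above them and the aged injured ones above both. Pcna rose 1.41-fold in young (0.50 ± 0.13, adjusted p = 0.00549, and 0.0867 with the arrays centred on their medians) and 2.46-fold in aged mice (1.27 ± 0.13, adjusted p = 7.65e-06). Aged exceeded young injured cord 1.67-fold (0.72 ± 0.13, adjusted p = 0.0138), and the difference of the injury differences was 0.77 ± 0.18 (adjusted p = 0.0993).

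The 5 subunits of the clamp loader differed in their calls. All rose in aged mice, by 0.34 to 2.00 on the log2 scale. In young mice Rfc1, Rfc2 and Rfc5 rose (0.215, 0.425 and 0.91). Rfc3 (0.416) and Rfc4 (-0.061) were not called there, although all injured arrays of Rfc3 lay above its intact ones. Rfc5 had signals of 29.4, 29.6 and 26.6 in young intact, 26.4, 31.5 and 22.8 in aged intact, 63.6, 41 and 58.9 in young injured and 145.3, 72 and 115.2 in aged injured cord. It was at least 1.09-fold higher after SCI in young and at least 2.22-fold in aged mice, and 2.03-fold higher in aged injured than in young injured cord (0.99 ± 0.25, adjusted p = 0.0367). Rfc1, the large subunit, had signals of 109.8, 110.2 and 111.5 in young intact, 109, 105.8 and 113.9 in aged intact, 127.6, 122.2 and 135.3 in young injured and 152.2, 131.1 and 134 in aged injured cord. The rise was small, 1.16-fold in young and 1.27-fold in aged mice (adjusted p = 0.0313 and 0.00222, and 0.85 and 0.055 with the arrays centred on their medians), and the ages overlapped after SCI (0.11 ± 0.08, 95% confidence interval -0.06 to 0.29, adjusted p = 0.33). Rfc4 was called between the injured ages (aged above young 1.83-fold, 0.86 ± 0.18, adjusted p = 0.0208).

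**Figure D2:**
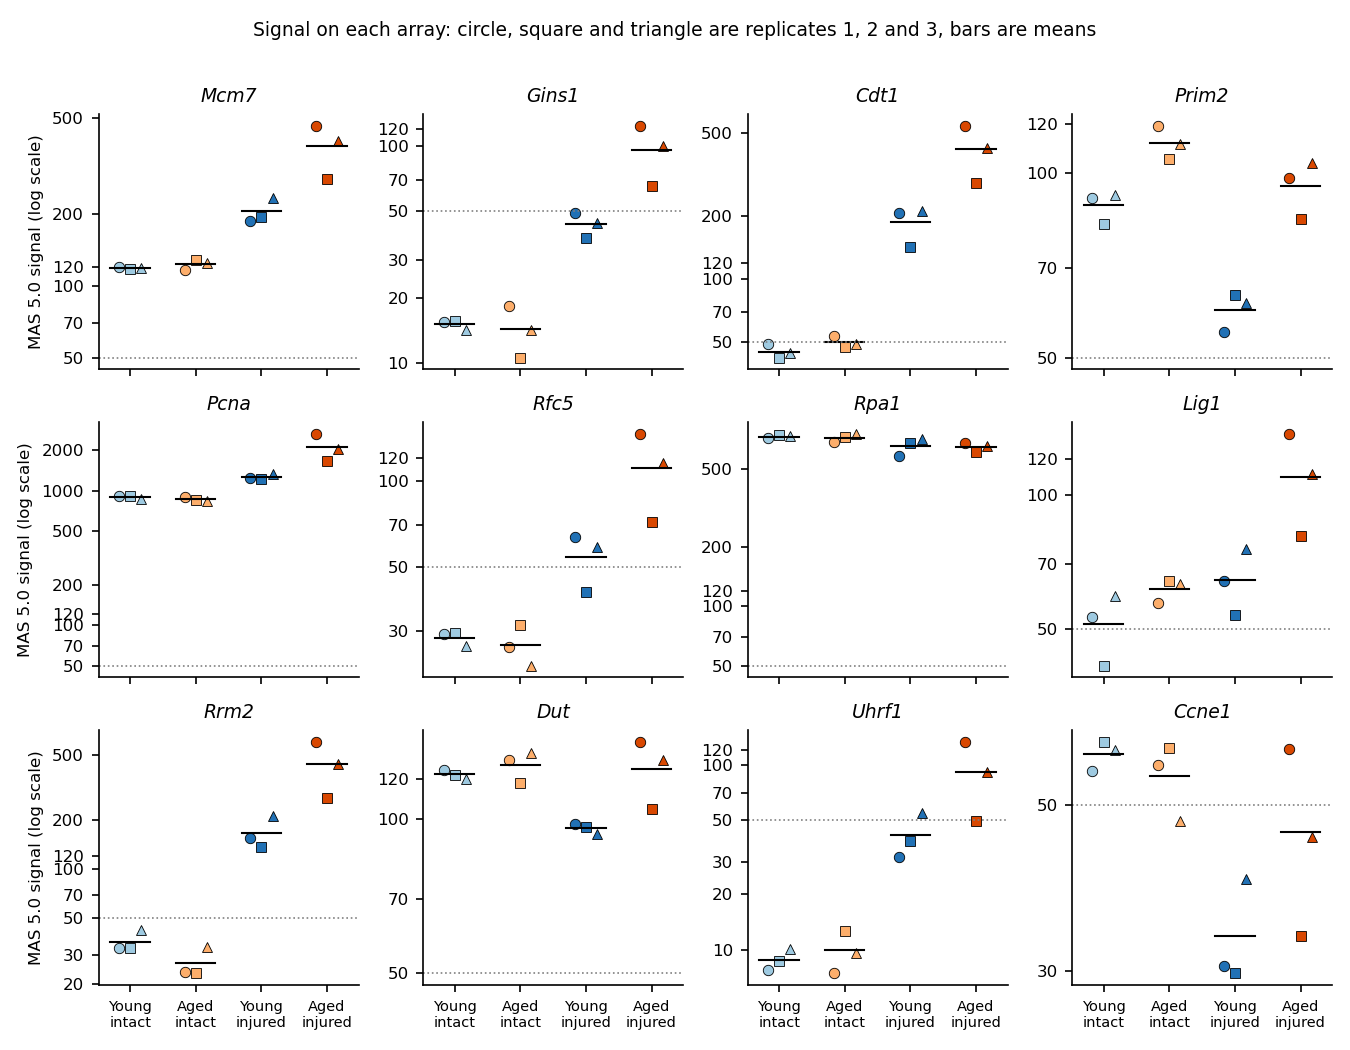
MAS 5.0 signal (vertical axis, log scale) of 12 members on each array by group, where circles, squares and triangles are replicates 1, 2 and 3, bars are group means and the dotted line is the cutoff of 50. Mcm7, Cdt1, Pcna and Rrm2 step up from intact to young injured to aged injured cord, Rpa1 lies between 581.6 and 751.1 on all arrays, and Prim2, Dut and Ccne1 are lowest in young injured cord.

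Of the genes that finish the lagging strand, Fen1, the flap nuclease, and Lig1, the ligase, rose in aged mice and were higher in aged injured than in young injured cord. None of the 4 genes of this group was called in young mice. Lig1 had signals of 53.2, 41.5 and 59.5 in young intact, 57.2, 64.2 and 63.2 in aged intact, 64.2, 53.8 and 75.6 in young injured and 136.9, 80.8 and 111.4 in aged injured cord. It rose 1.78-fold in aged mice (0.80 ± 0.20, adjusted p = 0.00376), and exceeded young injured cord 1.70-fold (0.75 ± 0.20, adjusted p = 0.0438). Rpa1, the large subunit of RPA, which also serves DNA repair, had signals of 712.1, 741.4 and 730.9 in young intact, 681.9, 720 and 751.1 in aged intact, 581.6, 674.1 and 703.3 in young injured and 677, 607 and 655.4 in aged injured cord. The injured arrays reached from 581.6 to 703.3 and the intact ones from 681.9 to 751.1, with neither injury difference called (-0.16 ± 0.08 and -0.15 ± 0.08, adjusted p = 0.0873 and 0.1, both past the test with the arrays centred on their medians), and the ages differed by -0.01 ± 0.08 after SCI (95% confidence interval -0.18 to 0.16). A second Rpa1 probe with signal above 50 gave 0.096 for aged injury where this one gave -0.15, the one disagreement in sign for aged injury among 19 members with several such probes. For young injury 6 of the 19 disagreed, namely Mcm2, Prim1, Rfc1, Rfc4, Fen1 and Rpa1. Rpa2 was not called in any comparison.

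The enzymes that supply deoxynucleotides held rises and a fall. Rrm1 and Rrm2, the subunits of ribonucleotide reductase, and Tk1, the thymidine kinase of S phase, rose in both ages, whereas Dut, which removes dUTP, fell in young mice. Rrm2 had signals of 33.1, 32.9 and 42.5 in young intact, 23.7, 23.1 and 33.5 in aged intact, 155.6, 135.9 and 210.5 in young injured and 600, 272.6 and 435.5 in aged injured cord. All injured arrays lay above all intact ones, at least 3.35-fold in young and at least 8.72-fold in aged mice by the means (adjusted p = 4.71e-05 and 4.74e-07). In injured cord the aged mean was 2.61 times the young one (1.33 ± 0.27, adjusted p = 0.0188), and 2 further Rrm2 probes above 50 gave 1.02 and 1.39 for the same difference.

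Tk1 had signals of 0.5, 7.5 and 7.4 in young intact, 3.8, 1.2 and 5.1 in aged intact, 34.5, 22.8 and 34 in young injured and 123.3, 42.4 and 86.7 in aged injured cord. Its aged injured mean was at least 1.68-fold above both aged intact and young injured cord, with adjusted p = 0.00108 for the first and 0.349 for the second, whose log2 difference (1.36 ± 0.98) had a wide error. Single intact arrays of Tk1 read as low as 0.5. Dut had signals of 125, 122.2 and 119.6 in young intact, 130.7, 117.8 and 134.7 in aged intact, 98, 96.4 and 93.6 in young injured and 141.7, 104.5 and 130.4 in aged injured cord. It was 1.27-fold lower after SCI in young mice (-0.35 ± 0.11, adjusted p = 0.0137) and not called in aged mice (-0.03 ± 0.11, adjusted p = 0.781). With the mean of both Dut probes the fall in aged mice passed as well (adjusted p = 0.0003). The second probe, under 50 in every group mean, gave -0.92 in young and -1.57 in aged mice. On the probe used, every young injured array lay below every other array. The ages did not overlap after SCI, at 0.38 ± 0.11 (adjusted p = 0.0518). This difference passed with quantile normalization, log2(signal + 16), the replicate block, array weights or without aged injured replicate 2 (adjusted p = 0.000237 to 0.0477), and with the mean of both Dut probes it was -0.10 (adjusted p = 0.656). Rrm1 rose 1.62-fold in young and 2.46-fold in aged mice. For Tyms, thymidylate synthase, its own probe read 10.8 or less on every array.

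Uhrf1 recruits the maintenance methyltransferase to newly copied DNA, and Chaf1b belongs to the complex that deposits histones behind the fork. Uhrf1 had signals of 7.8, 8.7 and 10.2 in young intact, 7.5, 12.7 and 9.7 in aged intact, 31.7, 38.6 and 54.9 in young injured and 132.8, 49.9 and 91.5 in aged injured cord. The aged injured mean was at least 1.83-fold above aged intact and young injured cord (adjusted p = 2.12e-05 and 0.0859), and aged injured replicate 2 fell inside the young injured range. Chaf1b was not tested, with means of 7.57, 17.9 and 33.0 in young intact, young injured and aged injured cord.

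The cyclin E genes moved apart, although both encode partners of Cdk2 at the start of S phase. Ccne2 had signals of 40.3, 42.8 and 47.7 in young intact, 49.9, 37 and 49 in aged intact, 45.4, 57.5 and 64.9 in young injured and 171.3, 79.9 and 108.9 in aged injured cord. It rose at least 2.40-fold in aged mice (adjusted p = 0.000502), was not called in young mice (0.35 ± 0.25, adjusted p = 0.233), and was 2.15-fold higher in aged injured than in young injured cord (1.05 ± 0.25, adjusted p = 0.0303). Ccne1 had signals of 55.5, 60.8 and 59.3 in young intact, 56.5, 59.7 and 47.7 in aged intact, 30.5, 29.8 and 39.9 in young injured and 59.5, 33.4 and 45.4 in aged injured cord. It fell at least 1.17-fold after SCI in young mice (-0.82 ± 0.20, adjusted p = 0.00427), with all 3 injured arrays under all 3 intact ones. In aged mice 2 of the 3 injured arrays lay below all intact ones and the third within their range, and the difference was not called (-0.28 ± 0.20, adjusted p = 0.23). It passed as a fall with the mean of all probes, with array weights or without aged injured replicate 1 (adjusted p = 0.0206 to 0.0347). The injured ages overlapped. E2f1 and E2f8 stayed under the cutoff in mean, and E2f8 reached 49.0 ± 12.5 (SD, n = 3) in aged injured cord from 15.9 ± 3.69 in young injured cord.

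The other 5 members called between the injured ages lie outside the rule for full values and were added after their values were seen. Mcm3 had signals of 19.8, 22.9 and 20.7 in young intact, 24, 29.9 and 22.4 in aged intact, 109.3, 81.6 and 108 in young injured and 287.9, 151.1 and 218.5 in aged injured cord, at least 1.99-fold higher after SCI in young and at least 4.38-fold in aged mice, and 2.20-fold higher in the aged (1.10 ± 0.22, adjusted p = 0.0177). For Mcm6, shown above for its E2F words, the arrays read 45.9, 54.8 and 50.8 in young intact, 50.7, 51.2 and 52.1 in aged intact, 180.3, 142.4 and 179.6 in young injured and 531.8, 251.8 and 446.1 in aged injured cord, a rise of 3.32-fold in young and 7.98-fold in aged mice, and the aged injured mean was 2.45 times the young injured one (1.23 ± 0.22, adjusted p = 0.0138). Neither gene had an injured array within the intact range, nor a young injured array within the aged injured range. Gmnn read 84.8, 93.9 and 72.6 in young intact, 89.4, 88.4 and 93.8 in aged intact, 118.6, 109.4 and 117.2 in young injured and 301.9, 167.1 and 206.4 in aged injured cord, a rise of 1.37-fold in young and 2.49-fold in aged mice and a difference of 1.96-fold between the injured ages (0.93 ± 0.18, adjusted p = 0.0161).

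Rfc4 read 53.3, 56.8 and 65.6 in young intact, 59.1, 61.5 and 68.4 in aged intact, 46.6, 65.3 and 57.5 in young injured and 130.6, 79.7 and 100.4 in aged injured cord. Only the aged injured arrays left the range of 46.6 to 68.4 in which the other 9 lay. Fen1 read 164.5, 141.9 and 130.2 in young intact, 194, 158.4 and 172.3 in aged intact, 118.9, 191.4 and 145.4 in young injured and 236.9, 206.8 and 295.4 in aged injured cord. It rose 1.41-fold in aged mice (0.48 ± 0.18, adjusted p = 0.029), and its difference between the injured ages (1.62-fold, 0.71 ± 0.18, adjusted p = 0.0359) had all aged above all young arrays, the closest being 206.8 and 191.4.

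**Figure D3:**
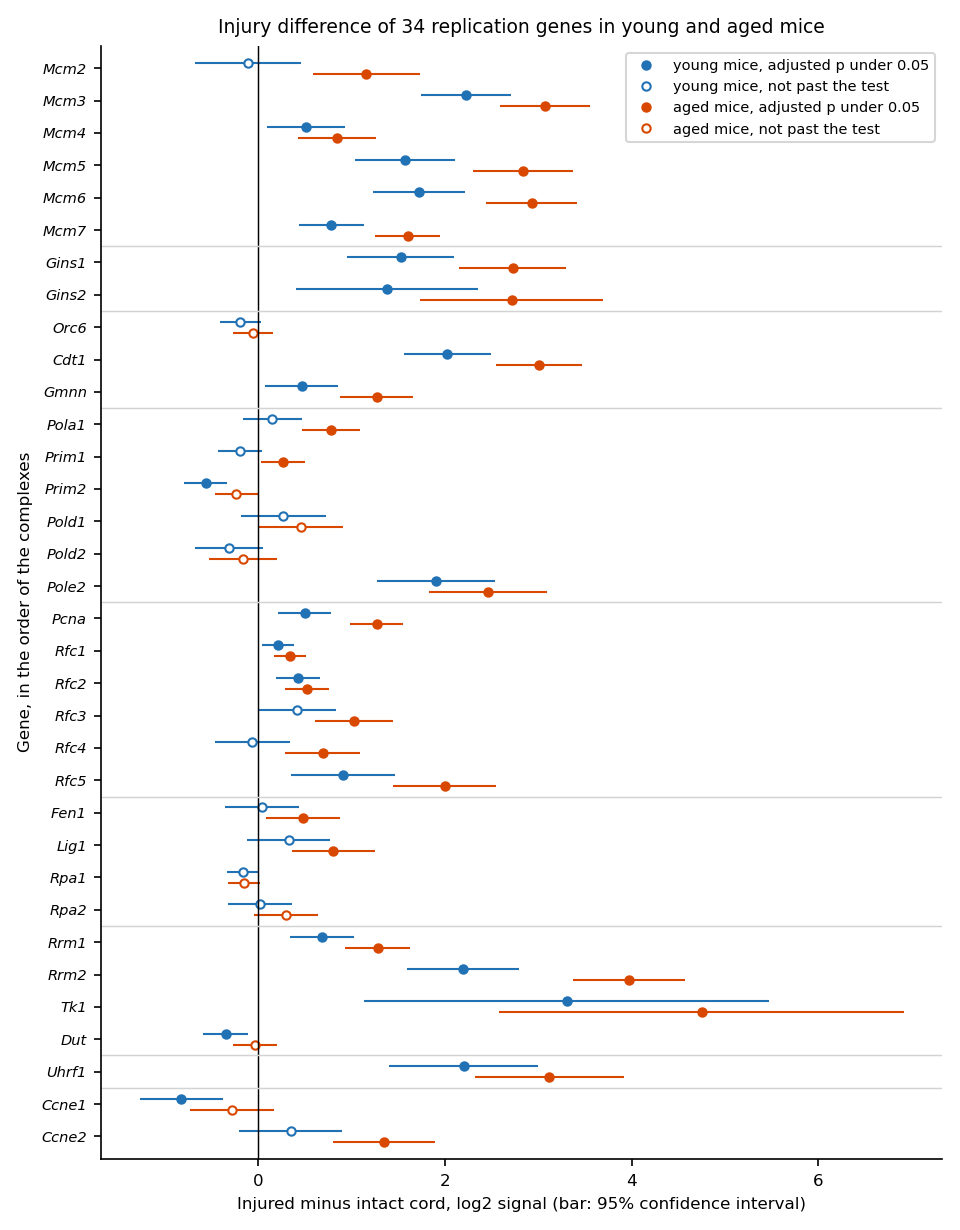
Log2 difference between injured and intact cord (horizontal axis) of the 34 tested members, in young (blue) and aged mice (orange), where bars are 95% confidence intervals and filled points have an adjusted p under 0.05. In young mice 18 points are filled above 0 and 3 (Prim2, Dut and Ccne1) below it, and in aged mice 26 above it and none below.

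The age difference after SCI rests on 3 arrays a group and was examined by leaving out each of the 12 arrays in turn. Of the 16 members called, 5 kept the call in all 12 fits, namely Cdt1, Mcm6, Mcm7, Pcna and Prim2. For Prim2 all aged arrays lay above all young ones in intact cord too. Gmnn, Mcm3 and Mcm5 lost the call only without young injured replicate 2 (adjusted p = 0.0527, 0.0613 and 0.0528) and Prim1 only without young injured replicate 1 (0.0547). Rrm2 lost it without young injured replicate 1 or 2 or aged injured replicate 3 (0.0579, 0.065 and 0.0514), and Rfc4 without young injured replicate 1 or 3 or aged injured replicate 3 (0.0645, 0.0515 and 0.0514). Ccne2 lost it without aged injured replicate 3 (0.0618) or any young injured array (0.0515 to 0.086). Gins1 lost it without aged injured replicate 1 or 3 or any young injured array (0.0591 to 0.0934). Fen1 lost it without aged injured replicate 3, young injured replicate 1 or 3, young intact replicate 2 or any aged intact array (0.0503 to 0.097). Lig1 and Rfc5 kept it in 1 fit each, that without aged injured replicate 2, and elsewhere had 0.0505 to 0.141 and 0.0501 to 0.118. All these log2 differences stayed positive. With the mean of all probes of a gene, which takes in dim ones, Cdt1 (0.39), Prim2 (0.271), Gins1 (0.222), Mcm5 (0.0845) and Lig1 (0.0542) were among those that lost the call.

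The count of members higher in aged injured cord was 8 without young injured replicate 1 or 2, 10 without young injured replicate 3, 9 without aged injured replicate 3 and 25 without aged injured replicate 2, and the median ranged from 0.59 to 0.91. The shares of all genes called in these fits are not given here, so the counts do not show a change particular to the members. Where the comparison of the injured ages took its error from its own 6 arrays alone, neither these members nor any other gene passed it. Calls after SCI were steadier. In aged mice 24 of 26 kept the call in all 12 fits, the exceptions being Fen1, without aged injured replicate 3 or aged intact replicate 2 or 3 (0.0664 to 0.119), and Prim1, without aged injured replicate 1 or 3, aged intact replicate 3, young injured replicate 2 or young intact replicate 1 (0.0503 to 0.177). In young mice 17 of 21 did. Gins2 lost it without young injured replicate 3 or young intact replicate 2 (0.0583 and 0.0673), Mcm4 without replicate 1 or 3 of either young group (0.0516 to 0.105), Rfc1 without young injured replicate 1 or any young intact array (0.063 to 0.115), and Gmnn without any young injured array or young intact replicate 1 or 3 (0.0546 to 0.129).

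**Figure D4:**
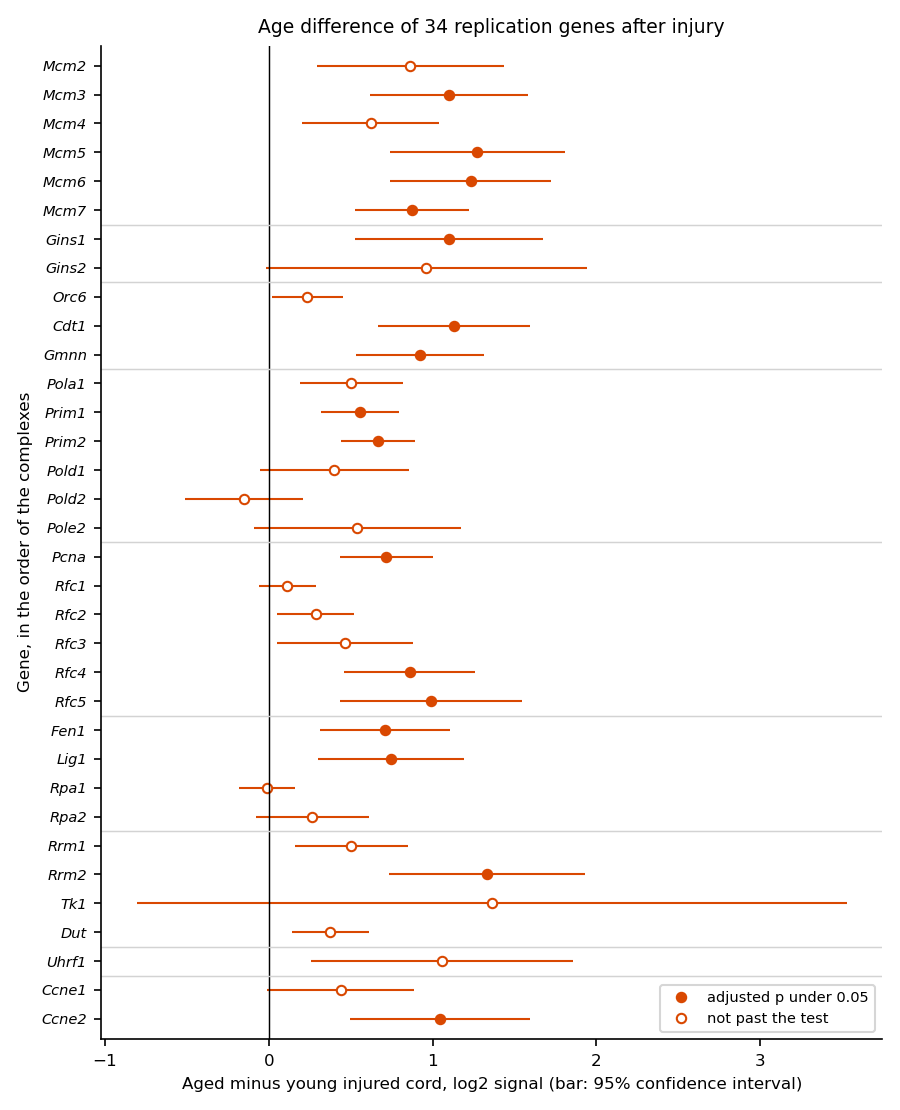
Log2 difference between aged and young injured cord (horizontal axis) of the 34 tested members, with 95% confidence intervals, where filled points have an adjusted p under 0.05. There are 16 filled points, all above 0, while Pold2 and Rpa1 lie just below it.

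The 3 aged injured arrays kept much the same order over the members. Replicate 1 had the highest of the 3 signals for 33 of the 44 members (75%) and replicate 2 the lowest for 38 (86.4%), against 41.5% and 40% of all genes tested. The median of the members against young intact cord was 1.44, 0.86 and 1.22 in replicates 1 to 3, and 0.58, 0.44 and 0.58 in the young injured arrays. Taken alone, aged injured replicate 1 lay above every young injured array for 41 members, replicate 2 for 30 and replicate 3 for 37. The same shares over all genes were 30.8%, 22.1% and 26.4%.

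Other measures moved with these arrays. Replicate 1, with the highest replication signals, had the lowest sum of neuron markers (1224 against 5452 to 8414 in the other aged and 5874 to 8935 in the young injured arrays) and of astrocyte markers (7456 against 11373 to 11974 and 14240 to 16010). The 11 markers of macrophages and microglia, all called higher after SCI at both ages, summed to 35115, 30957 and 33577 in aged injured replicates 1 to 3 and to 24660 to 31670 in young injured cord. In intact cord they summed to 2759 to 3058 in young and 5110 to 5430 in aged mice. Between the injured ages 4 of the 11 (Adgre1, Cd68, Itgam and Lgals3) were higher in aged mice, by 0.65 to 0.84 on the log2 scale, and 3 of 6 astrocyte markers (Aqp4, Gfap and Gja1) were lower. Fibroblast and pericyte markers summed to 10248, 7342 and 8664 in aged injured replicates 1 to 3, in the order of the member medians. Other sums were lowest in replicate 1: 1717, 2226 and 2389 for homeostatic microglia, 13070, 16942 and 16728 for oligodendrocytes and 1134, 1623 and 1875 for their precursors. Single genes differed. Of the precursor markers, Olig1 (472.8, 968.8 and 1061), Olig2 and Sox10 were lowest in replicate 1. Pdgfra (426.3, 311.7 and 407.8) was highest there, and Cspg4 (74.8, 69.3 and 101.1) was lowest in replicate 2. Tmem119 (273.5, 219.6 and 260.1) was highest in replicate 1, unlike the other homeostatic microglia markers. None of the measured T cell (6), B cell (4) or erythroid markers (5) had a group mean above 50. The part of these cell types in the replication signals was not tested.

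Genes of mitosis, which act after replication, were set beside the members. Of 26 measured, all 21 tested rose after SCI at both ages, but 20 of the 21 passed the filter only through an injured group, so that this count was largely set by the filter, Mad2l1 being the exception. Their median log2 differences were 2.14 in young and 3.73 in aged mice, against 0.48 and 1.27 for the members, and 1.06 and 2.07 against 0.34 and 0.84 on the scale of log2(signal + 16). Between the injured ages 12 were higher and none lower, with a median of 1.11, where 4.41% of all genes tested were called higher and 4.58% lower. Mki67, the gene of the proliferation antigen Ki-67, rose at least 3.16-fold in young and at least 7.88-fold in aged mice, and its difference between the injured ages (1.30 ± 0.50, adjusted p = 0.112) did not pass. Cenpa, the centromere histone, rose at least 2.04-fold in young mice and Bub1, a checkpoint kinase, at least 2.35-fold in aged mice. The largest called differences between the ages were those of Ube2c (1.43, 2.83-fold) and Birc5 (1.38, 2.73-fold), which act in protein breakdown and chromosome segregation at mitosis. In the aged injured arrays replicate 1 was highest for 25 of the 26 and replicate 2 lowest for all 26.

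Further genes of the fork, the origins and the replication checkpoint rose in part and fell in part. Of 47 measured and 37 tested, 18 rose and 4 fell in young and 23 rose and 6 fell in aged mice, with medians of 0.20 and 0.36. Beside this, 33.9% of all genes tested rose and 34.1% fell in young and 35.6% and 39.9% in aged mice. Of the 37, 8 passed the filter only through an injured group, among them Dbf4, Asf1b, Clspn, Wdhd1 and Hells. The rises of these 8 were largely set by the filter. Dbf4, the regulatory subunit of the kinase that fires origins, rose at least 1.97-fold in young and at least 3.53-fold in aged mice, and of the other large differences Asf1b, a histone chaperone, rose at least 1.91-fold and Clspn, a checkpoint mediator, at least 1.16-fold in aged mice. Cdc7, the kinase that Dbf4 activates, fell 1.77-fold and 1.73-fold (adjusted p = 0.00139 and 0.00161). Orc4 and Orc5, subunits of the origin recognition complex, fell at both ages (Orc5 1.33-fold and 1.49-fold), and Orc2 fell in aged mice (1.42-fold, adjusted p = 0.00101). Between the injured ages 7 were higher and none lower, where 4.41% of all genes tested were called higher and 4.58% lower. The largest called were Wdhd1 (1.06 ± 0.25, at least 1.25-fold) and Hells (0.97 ± 0.27, at least 1.87-fold).

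Other enzymes of purine, pyrimidine and deoxynucleotide synthesis moved little as a group. Of 28 measured and 25 tested, 9 rose and 5 fell in young and 12 rose and 6 fell in aged mice, with medians of 0.13 and 0.28. The shares of all genes tested were 33.9% and 34.1% in young and 35.6% and 39.9% in aged mice. The rises in young mice were thus near the share of all genes. Of the 25, 3 passed the filter only through an injured group. The 2 isoforms of phosphoribosyl pyrophosphate synthetase on the list went opposite ways, Prps2 up 1.98-fold and 2.06-fold and Prps1 down 1.74-fold and 2.07-fold in young and aged mice, and Guk1, guanylate kinase, fell 1.97-fold and 2.54-fold. Slc29a1, a nucleoside transporter, rose at least 1.10-fold in aged mice. Ctps2, a CTP synthase, was the only one of the 25 to differ between the injured ages (1.32-fold, adjusted p = 0.0349), a share near the 4.41% of all genes called higher.

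A pair of ribonucleotide reductase small subunits can be compared in direction. Rrm2, used in S phase, rose at both ages, whereas Rrm2b, which serves cells outside S phase, fell 1.45-fold in aged mice (-0.54 ± 0.10, adjusted p = 0.00055) and gave -0.23 ± 0.10 in young mice (adjusted p = 0.0599). Its group means were 251 ± 13.7 (SD, n = 3) in young intact, 277 ± 8.78 in aged intact, 214 ± 12.02 in young injured and 192 ± 28.4 in aged injured cord. Of the other nucleotide enzymes known outside S phase, Samhd1, a dNTP hydrolase of myeloid cells, rose at least 2.67-fold and at least 3.15-fold, Tk2 rose in young and Dck in aged mice, and Dguok at both ages. Dck, deoxycytidine kinase, was 1.82-fold higher in aged injured than in young injured cord (0.83 ± 0.15, adjusted p = 0.0145).

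Of the E2F, RB and DREAM family, 17 were measured and 11 tested, 3 of the 11 only through an injured group. In young mice 7 rose and 2 fell, where 33.9% and 34.1% of all genes tested did. In aged mice 6 rose and 2 fell, where 35.6% and 39.9% did. The activator E2f2 rose at least 1.10-fold in aged mice from signals under the cutoff. The repressor E2f6 fell 1.93-fold and 1.97-fold, and Rbl1, a relative of the RB protein, rose at least 2.14-fold and at least 3.17-fold. Tfdp1, the partner that E2F factors bind DNA with, was the only one higher in aged injured than in young injured cord (1.32-fold, 0.39 ± 0.11, adjusted p = 0.0475). Of all genes tested 4.41% were called higher there.

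**Figure D5:**
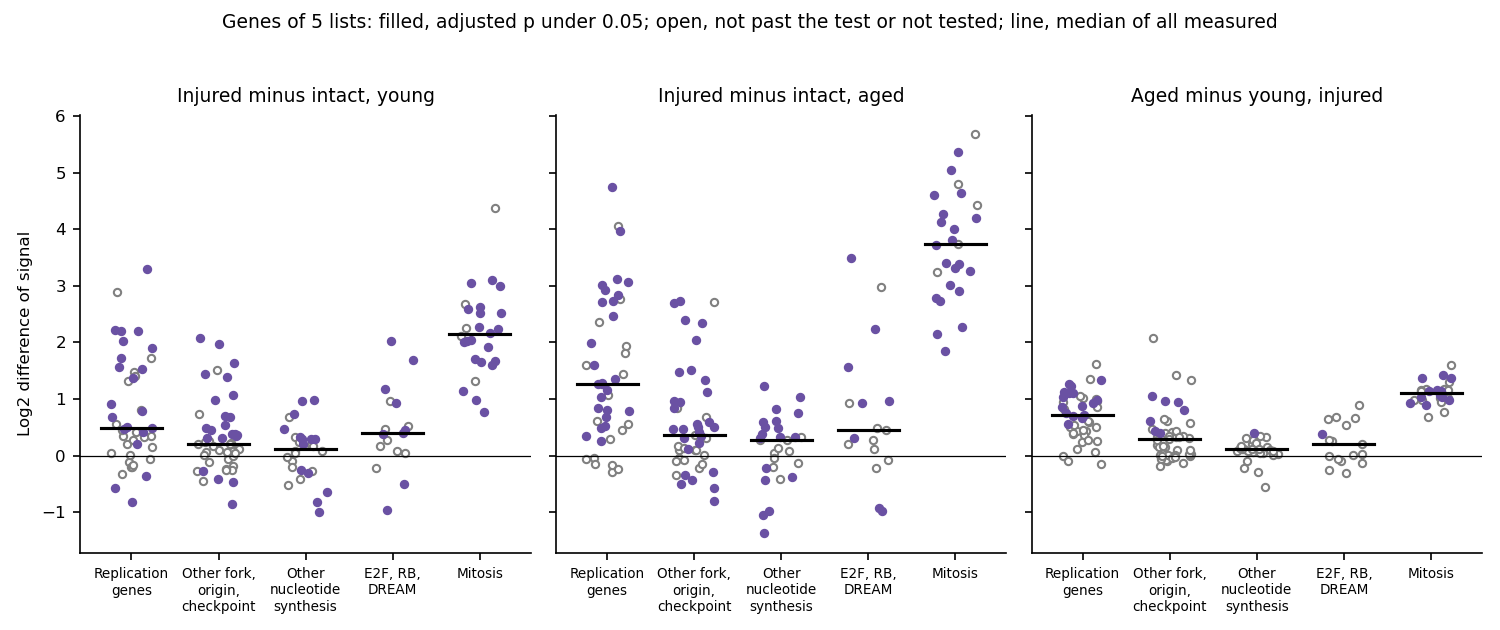
Log2 differences of single genes (points) in 5 lists for injured against intact cord in young and in aged mice and for aged against young injured cord, where filled points have an adjusted p under 0.05 and lines are medians over all measured genes. The mitosis genes lie highest in each panel (medians 2.14, 3.73 and 1.11), followed by the replication genes (0.48, 1.27 and 0.71), and the other 3 lists have medians of 0.13 to 0.41 in young and 0.28 to 0.45 in aged mice and 0.11 to 0.30 between the injured ages, where the E2F, RB and DREAM family in young mice (0.41) comes near the replication genes. All but 1 of the mitosis genes had both intact means at 50 or less, where differences are least certain.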

How the data were processed

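Total RNA from the Th9 segment of 12 mice was hybridized to GeneChip Mouse Genome 430 2.0 arrays, and the authors converted the images to intensity values with the MAS 5.0 algorithm. The deposited intensities are linear, each array having a 2% trimmed mean of 100, and without detection calls. The platform annotation, which can be old, names 1 gene for 34958 of 45101 probes, several for 932 and none for 9211. Probes of the latter 2 kinds were left out.

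Log2 signals of the 10511 genes with a mean above 50 in at least 1 group were fitted with limma 3.58.1 in R 4.3.3, with 1 mean per group, a trend in the prior variance and Benjamini-Hochberg adjustment over all of them. Intervals are 95% confidence intervals of the fit, and ± beside a log2 difference is its SE. Where a group mean was 50 or less it was set to 50 and the ratio of means written as "at least", with none given where both were. Medians of a list are over all its measured genes. The fit was checked on simulated data. The number of arrays limits the precision. The p-values measure the spread between mice as 1 estimate per gene, shared by all 4 groups. Aged injured arrays lay further apart than the others (mean distance 58.6 against 26.8 to 31.4), so this estimate can be too small for that group.

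Full values are given, in each of 9 groups of members, for the gene of highest mean signal, those with the largest and smallest difference between aged and young injured cord, and any called against the direction of its group. From other lists the 2 largest called differences of a comparison are named, and further genes named from them were chosen after their values were seen. Members, lists and searched words were chosen with earlier results of these data known, so no list was given a set test and none is independent support. Promoters came from RefSeq (GRCm38.p6) and were searched with Python 3.11.15. Alternatives were quantile or median scaling, other filters, log2(signal + 16), the mean of all probes, no trend, array weights, the groups compared alone, the replicate block and leaving out each array, and, chosen after seeing the data, a filter on the mean over all 12 arrays.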

Additional observations from a re-analysis of the deposited data

Results flagged for a closer look

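A probe outside the comparisons above was brighter after injury. It is paired in the annotation with both Tyms, the gene of thymidylate synthase, and Tyms-ps, its pseudogene, and therefore not used for either. It read 20.9 ± 3.69 (SD, n = 3) in young intact and 23.7 ± 2.59 in aged intact cord, where every array was below 27. In young injured cord it read 54.0, 49.6 and 46.8, with a mean of 50.13 ± 3.63, and in aged injured cord 120.7, 65.4 and 91.3, with a mean of 92.47 ± 27.7. All injured arrays lay above all intact ones and all aged injured above all young injured arrays. Which of the 2 genes it reads cannot be told from these signals.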

How the results depend on the processing

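The count of members higher in aged injured cord, 16 as reported, was 0 with only the arrays of the groups compared, 10 with the mean of all probes and 25 with array weights, and leaving out 1 array gave 8 to 25, with medians of 0.59 to 0.91. The difference of the injury effect gave 20 higher with array weights, leaving out 1 array gave 0 to 13 and medians of 0.43 to 0.84, and aged against young intact cord gave 1 higher with array weights and medians of -0.01 to 0.06 on leaving out 1 array. In aged mice the members lower after injury, 0 as reported, were 2 with arrays centred on the median, 2 with the mean of all probes, 1 without a trend and 3 with array weights, and the median of 1.27 was 0.84 with log2(signal + 16) and 0.99 with the mean of all probes. In young mice the 3 lower became 7 with centred arrays and 5 with array weights. Leaving out 1 array gave 15 to 19 higher, 3 to 4 lower and medians of 0.42 to 0.54 in young, and 25 to 28 higher, 0 to 1 lower and medians of 1.06 to 1.44 in aged mice. The 10 members past the methods' fold cutoff became 4 to 15, the lowest without replicate 1 and the highest without replicate 2 of the aged injured arrays. The cause of these changes was not tested, and the counts of all genes called under the same settings are not given here. Among the members picked by the rule for full values, no difference that passed as reported reversed its direction under any alternative run. Of those that did not pass as reported, Dut between the injured ages was called higher in 5 settings and turned negative with the mean of both probes. Among the medians the one between the intact ages changed sign, from 0.04 to -0.01 without young intact replicate 1. Only 2 of 18 same-number correlations were above 0.1 (-0.11 to 0.67), both between young and aged injured cord (0.60 and 0.67 for replicates 1 and 2, and 0.01 for replicate 3), so the replicate numbers were not taken to pair the arrays. With the replicate block 17 members were higher in aged injured cord, 18 higher after injury in young and 25 in aged mice. Signals near or under 50 limit the 10 untested members.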
